A study of Homo sapiens with 4 samples.

Results

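Glycolysis and hypoxia response genes are a set of 32 of the 58302 genes in the deposited tables. They were chosen by symbol as glucose transporters, glycolytic enzymes and their regulators (22 genes) or as HIF targets with other functions (10 genes). All 32 symbols matched an Ensembl gene in the tables. The cells were T24, an established line from a human bladder carcinoma. The 4 libraries comprise 2 labelled control and 2 labelled IGF2BP3 knockout, the latter from cells in which CRISPR/Cas9 had been used against the gene of that RNA-binding protein. The labels name no treatment, oxygen level, passage or clone. Nothing in them tells if replicate libraries are from cultures grown apart, so the p-values measure only a spread between libraries that may be technical. That spread was set by genes of like level, so an SE of a fold change is not the replicate error of the named gene. The comparison addresses how levels of these RNAs differ in T24 cells edited to lack IGF2BP3.

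Glycolysis turns glucose into pyruvate in the cytosol and yields ATP on the way. Many tumour cells run it fast and pass the pyruvate on to lactate. Most of its enzymes exist as isozymes encoded by separate genes, and several of those genes are also targets of HIF (hypoxia-inducible factor), a transcription factor whose alpha subunit is marked for degradation by prolyl hydroxylases when oxygen is plentiful. Glycolysis and the hypoxia response are therefore often read together.

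Levels are given as FPKM (fragments per kilobase of gene length scaled to library depth), which are per length. The length is that of a gene's longest annotated transcript for nearly all genes, so comparisons of level between genes are approximate where shorter transcripts dominate. The read totals behind them were 2162179 and 1870884 for control 1 and control 2, and 811823 and 1240207 for knockout 1 and knockout 2, so the knockout libraries were the shallower ones. IGF2BP3 itself stood at FPKM 2.94 and 21.5 in control cells, while knockout 1 listed it at 0 and knockout 2 at 0.190 (171 reads in control 2, 1 read in knockout 2). Its log2 fold change of −3.89 ± 2.83 (SE) had an adjusted p of 0.955 in limma, so the targeted gene was lower in both knockouts without passing the test. Of 8 epithelial and urothelial markers, KRT8 and KRT18 were above 0 in all 4 libraries, while KRT19, EPCAM, UPK2 and UPK3A, the last 2 particular to urothelium, were listed at 0 in every library. The summed FPKM of these 8 markers was 440 and 575 in control cells and 1499 and 1163 in knockout cells. The 3 that were tested were higher in both knockouts, and none had an adjusted p under 0.05 in limma. An unadjusted p under 0.05 was found for 2 of them, against 3.91% of all genes tested. KRT8 came nearest, with a log2 fold change of 1.57 and an adjusted p of 0.0896 in limma. The part of these marker differences in the values of the set was not tested. TBP and HPRT1, which every cell uses, were also listed at 0 in knockout 1, and HPRT1 had 1 read in control 1, so a listed 0 does not show that a gene is silent. All 5 leukocyte markers were at 0 in every library, 1 of 4 endothelial markers was above 0 in 1 library, and 2 of 5 fibroblast markers were above 0 somewhere, with a summed FPKM of at most 14.9.

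No gene of the set passed the test. The mean FPKM of 27 of the 32 genes reached the minimum of 1 needed for testing, and none had an adjusted p under 0.05 in limma (a linear model on log2(FPKM + 0.5) over all genes, with Benjamini-Hochberg adjustment), the smallest being 0.955. Among all 11463 genes tested, 0.0872% passed, 0.0611% as higher in knockout cells and 0.0262% as lower. At an unadjusted p under 0.05 stood 1 of the 27, LDHA, against 3.91% of all genes, and limma-voom on recovered reads also called 0 of the 27, with 2 at an unadjusted p under 0.05. The fitted difference was above 0 for 12 of the 27 and below 0 for 15, with a median of −0.021 on the log2 scale. Over all genes tested, 48.2% were above 0 and the median was −0.082. The split rested on knockout 1: without that library 21 of the 27 were above 0, with a median of 0.64 against 0.16 for all genes. Fewer cells of a kind and less RNA per cell cannot be told apart in bulk RNA.

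Values of the groups did not overlap for 8 of the 27 (29.6%, against 26.5% of all genes tested). GPI, TPI1, GAPDH, LDHA, PDK1 and P4HA2 were higher in both knockouts than in both controls (6 genes, 22.2% of the set, against 12.1% of all genes tested). PFKP and P4HA1 were lower in both knockouts (2 genes, 7.41%, against 14.4%). Only 9 of the 27 had a mean FPKM of at least 100. Of these, LDHA, GAPDH and TPI1 were higher without overlap and PFKP lower without overlap (33.3% and 11.1% of the 9). Among all 539 tested genes of that level, 13.2% were higher and 15.2% lower without overlap.

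**Figure D1:**
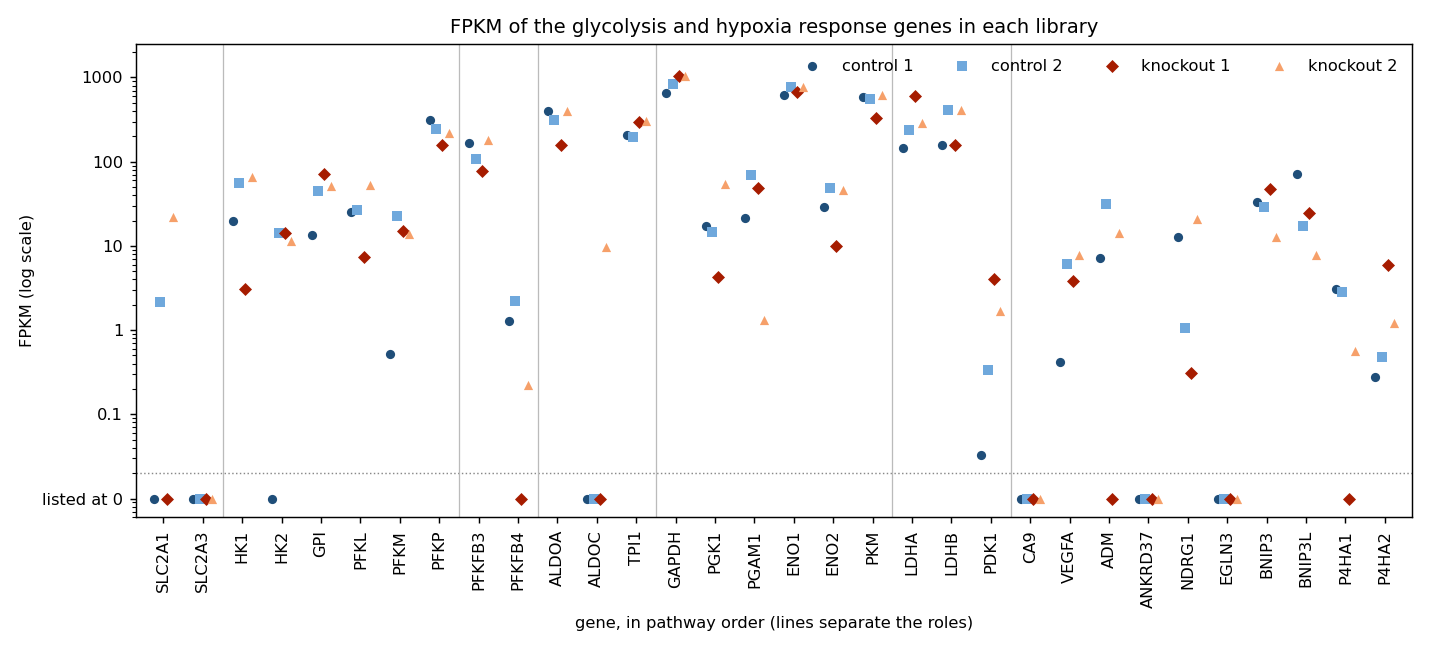
FPKM (log axis, with zeros drawn on a separate line at the bottom) of the 32 genes in pathway order, with 1 point per library. The 9 genes averaging 100 or more, such as GAPDH and ENO1, vary less across libraries than most others, while genes under 30 often span more than a factor of 10, and SLC2A3, CA9, ANKRD37 and EGLN3 are listed at 0 in every library.

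The promoters of the 4 abundant genes whose groups did not overlap are shown to set beside the values which of them carry the core letters of the hypoxia response element, to which HIF binds. Each is the 250 bases before a RefSeq transcription start (GRCh38.p14), read 5′ to 3′ on the plus strand, on which all 4 genes lie. Capitals mark ACGTG on either strand, and CACGTG holds that motif on both strands and counts as 2 matches.
LDHA, chr11:18394313-18394562: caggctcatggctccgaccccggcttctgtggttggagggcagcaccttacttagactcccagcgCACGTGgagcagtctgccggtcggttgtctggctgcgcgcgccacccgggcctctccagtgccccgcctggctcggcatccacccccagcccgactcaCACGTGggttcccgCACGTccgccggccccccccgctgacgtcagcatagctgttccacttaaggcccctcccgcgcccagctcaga
GAPDH, chr12:6535014-6535263: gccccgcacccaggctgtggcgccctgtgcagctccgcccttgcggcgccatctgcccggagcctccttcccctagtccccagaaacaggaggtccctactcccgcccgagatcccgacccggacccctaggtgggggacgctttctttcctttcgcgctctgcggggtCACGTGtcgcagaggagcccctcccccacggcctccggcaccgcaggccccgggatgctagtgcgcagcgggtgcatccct
TPI1, chr12:6867281-6867530: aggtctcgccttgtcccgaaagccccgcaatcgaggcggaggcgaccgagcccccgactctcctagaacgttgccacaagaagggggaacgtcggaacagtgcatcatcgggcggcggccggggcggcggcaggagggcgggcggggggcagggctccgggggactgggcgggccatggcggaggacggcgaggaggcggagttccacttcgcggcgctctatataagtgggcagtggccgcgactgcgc
PFKP, chr10:3067720-3067969: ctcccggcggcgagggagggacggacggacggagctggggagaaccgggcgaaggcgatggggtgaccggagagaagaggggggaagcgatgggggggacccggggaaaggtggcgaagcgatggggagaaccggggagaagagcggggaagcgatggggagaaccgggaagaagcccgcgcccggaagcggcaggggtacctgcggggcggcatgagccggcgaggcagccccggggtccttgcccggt

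The LDHA stretch held 5 matches of ACGTG, the farthest beginning 185 bases before the start and the nearest 73. The GAPDH stretch held 2, from a single CACGTG that begins 81 bases before the start, and the stretches of TPI1 and PFKP held 0. Other windows of these genes do hold the letters: the second TPI1 window has 1 ACGTG and 1 GCGTG, a PFKP window has 1 ACGTG and another has 3 GCGTG. The second LDHA window has 0 ACGTG and 1 GCGTG. The RefSeq starts lie 175, 1337, 412 and 1637 bases inside the GENCODE 29 genes of LDHA, GAPDH, TPI1 and PFKP, and the table lists 2 windows for LDHA, 1 for GAPDH, 2 for TPI1 and 4 for PFKP. In the full windows of 300 bases, 28 of the 32 genes had an entry (50 windows in all). ACGTG was present for 17 of the 28 genes (60.7%), against 24.9% of the 27305 genes in the table. By window it was present in 42.0% of those of the set and in 21.4% of all windows. GCGTG, the other form of the core, was present for 16 of the 28 genes (57.1%), against 40.6% of all genes. By window GCGTG was present in 38.0% of those of the set and in 36.5% of all windows, which is nearly the same. The set has more windows per gene (50 for 28 genes, against 35116 for 27305), which raises a share taken by gene. HIF targets were chosen for the set, so its higher share of ACGTG is not independent of that choice. A match is a run of letters and not a measured binding site.

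Glucose enters cells through facilitative transporters, and hexokinases then trap it by phosphorylation. SLC2A1, the gene of the widespread transporter GLUT1, was listed at 0 in control 1 and knockout 1 and stood at FPKM 2.19 in control 2 and 21.8 in knockout 2. One library of each group was thus at 0 and the groups overlapped. SLC2A3, the gene of the high-affinity transporter GLUT3, was at 0 in all 4 libraries, where 3 reads would have given an FPKM between 0.314 in control 1 and 0.837 in knockout 1.

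HK1, the hexokinase of most tissues, had FPKM of 19.6 and 55.9 in control cells and 3.11 and 65.5 in knockout cells. The knockouts held both its lowest and its highest value, 10 and 322 reads, and its log2 fold change of −1.12 ± 1.30 (SE, n = 2 and 2) turned to 0.97 without knockout 1. HK2, the isozyme often induced in tumours, was at 0 in control 1 and at 14.4 in control 2, 14.1 in knockout 1 and 11.3 in knockout 2. Control 2 and the knockouts lay close together for HK2, and control 1 alone stood apart. AC019069.1 overlaps HK2 on the other strand, with FPKM of 17.6 in control 2 and 0 in the other libraries. HK1 made up 100% and 79.6% of the hexokinase FPKM in control cells and 18.1% and 85.3% in knockout cells, so that HK2 exceeded HK1 in knockout 1 only.

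GPI, which converts glucose 6-phosphate to fructose 6-phosphate, was higher in knockout cells at FPKM 71.1 and 52.0 than in control cells at 13.6 and 44.5. Its groups were separated by less than the distance between the controls, and its log2 fold change of 1.28 ± 1.05 (SE) did not pass.

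Phosphofructokinase commits sugar to glycolysis and is built from liver, muscle and platelet subunits. PFKP, the platelet subunit, was by far the most abundant of the 3 at FPKM 310 and 246 in control cells against 156 and 218 in knockout cells. All 4 counting intervals of PFKP were narrow (296 to 325 and 232 to 259 in control cells, 140 to 173 and 202 to 234 in knockout cells), and the nearest values of the groups, control 2 and knockout 2, had intervals that overlapped. Its log2 fold change was −0.58 ± 0.55 (SE), with an unadjusted p of 0.295 and an adjusted p of 0.955 in limma. PFKL had 25.3 and 26.7 against 7.38 and 53.0, with knockout 1 the lowest and knockout 2 the highest library. PFKM had 0.517 and 22.8 against 15.1 and 13.7, with control 1 apart from the other 3. PFKP made up 92.3% and 83.2% of the phosphofructokinase FPKM in control cells and 87.4% and 76.5% in knockout cells, and remained the leading subunit in every library.

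The bifunctional enzymes encoded by PFKFB3 and PFKFB4 make and remove an allosteric activator of phosphofructokinase. PFKFB3 had FPKM of 169 and 106 in control cells and 76.7 and 180 in knockout cells, which held both extremes. PFKFB4 was low at 1.29 and 2.24 against 0 and 0.225 (10 and 15 reads against 0 and 1) and was not tested. PFKFB3 made up at least 97.9% of the pair in every library.

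ALDOA, the main aldolase, had FPKM of 402 and 316 in control cells and 158 and 396 in knockout cells, and only knockout 1 stood apart. ALDOC was at 0 in both controls and in knockout 1 and at 9.76 in knockout 2. Its 24 reads thus all came from 1 library. A protein-coding gene on the same strand, AC005726.1, overlaps ALDOC and had FPKM of 0, 21.6, 52.1 and 5.75 in control 1, control 2, knockout 1 and knockout 2.

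TPI1, which interconverts the triose phosphates, had the closest replicates of the 27 tested genes of the set. It had FPKM of 206 and 196 in control cells against 293 and 303 in knockout cells. The counting intervals overlapped within each group (192 to 221 and 181 to 212, then 266 to 323 and 280 to 327) and not between the groups. The SD between replicates of TPI1 was 0.043 on the log2 scale, against a median of 0.60 for all 419 tested genes with a mean FPKM between 100 and 300. The log2 fold change of 0.57 ± 0.54 (SE) had an adjusted p of 0.955 in limma. That SE was set by genes of like level and not by the replicates of TPI1. LDHB, with an SD between replicates of 0.98, had nearly the same SE, 0.53. With each library left out in turn the fold change of TPI1 lay between 0.53 and 0.60. TPI1 (ENSG00000111669) lies on chromosome 12 from 6867119 to 6870948 in hg38. SPSB2 overlaps it on the other strand, with FPKM of 113 in control 1 and at most 9.16 in the other libraries.

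The payoff phase yields ATP and NADH. GAPDH, its first enzyme, was the most abundant gene of the set, at FPKM 646 and 838 in control cells and 1054 in both knockouts. It ranked 31 and 22 among 19817 protein-coding genes in control cells and 17 and 10 in knockout cells. Both knockouts were above both controls, and the knockouts lay closer to each other than the controls did. The log2 fold change was 0.52 ± 0.36 (SE), with an unadjusted p of 0.145 and an adjusted p of 0.955 in limma, and lay between 0.33 and 0.71 with a library left out. GAPDH (ENSG00000111640) lies on chromosome 12 from 6533927 to 6538374. The antisense gene AC006064.4 overlaps it, with FPKM of 197, 96.3, 703 and 74.5 in the 4 libraries in the same order. The strand setting is not given, so reads of the pair cannot be told apart and the values of GAPDH are uncertain to that extent. The same limit holds for the other genes of the set that a gene above 0 overlaps.

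PGK1, which makes the first ATP, had FPKM of 17.3 and 14.7 in control cells against 4.28 and 54.3 in knockout cells. It stood far below GAPDH, the step before it, in every library. The length used for PGK1, 4887 nt, is that of its longest annotated transcript, which lowers the FPKM of a gene whose shorter transcripts dominate. By recovered reads PGK1 was also below GAPDH, at 183, 134, 17 and 329 against 2617, 2938, 1605 and 2451 in the same order. PGAM4 overlaps PGK1 on the other strand, with FPKM of 43.5, 21.0, 0 and 2.11. PGAM1, the mutase of the next step, had 21.5 and 70.4 against 48.5 and 1.32. That last value rests on 3 reads, against 72 in the shallower knockout 1. The log2 fold change of PGAM1, −2.06 ± 1.39 (SE), turned to 0.31 without knockout 2.

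ENO1, the ubiquitous enolase, had FPKM of 625 and 777 in control cells and 672 and 778 in knockout cells. Its log2 fold change of 0.054 ± 0.38 (SE; 95% interval −0.69 to 0.80) was smaller than its SE, and quantile normalization turned it to −0.067. ENO2, the neuronal enolase, had 29.3 and 48.2 against 10.02 and 46.5, with knockout 1 the lowest. ENO1 made up 95.5% and 94.2% of the pair in control cells and 98.5% and 94.4% in knockout cells. PKM, the pyruvate kinase gene, had 582 and 562 against 332 and 617, and again knockout 1 alone stood apart. These tables give a value per gene, so the splice forms of PKM were not analysed here.

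**Figure D2:**
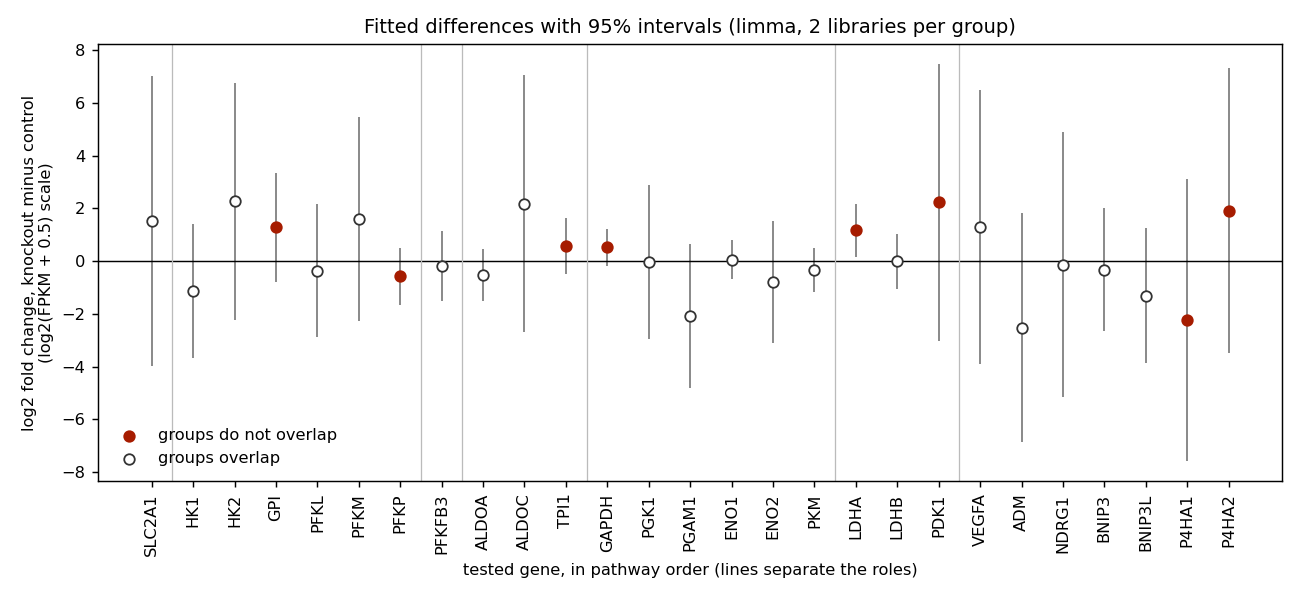
Log2 fold change (knockout minus control, log2(FPKM + 0.5) scale) of the 27 tested genes in pathway order, with 95% intervals from limma. Filled points are the 8 genes whose groups do not overlap. The interval of LDHA alone lies above 0, from 0.15 to 2.18, before any adjustment for the number of genes tested.

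Lactate dehydrogenase turns pyruvate into lactate, and its A and B subunits come from separate genes. LDHA had FPKM of 146 and 236 in control cells against 604 and 289 in knockout cells. Both knockouts lay above both controls, and knockout 1 was higher than any other library. The counting intervals of the 4 libraries were 136 to 157, 222 to 250, 570 to 639 and 270 to 309, all apart, so the replicates of each group differed by more than counting error. Its log2 fold change was 1.17 ± 0.52 (SE), with an unadjusted p of 0.0239 that did not survive adjustment over all genes (adjusted p = 0.955 in limma). The fold change of LDHA was 0.64 without knockout 1, 1.70 without knockout 2, and positive under every alternative run. LDHA (ENSG00000134333) lies on chromosome 11 from 18394388 to 18408425 in hg38, with the promoter stretch of 5 ACGTG matches shown above.

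LDHB, whose subunit favours the reverse reaction, had FPKM of 158 and 416 in control cells and 159 and 415 in knockout cells. Each group thus held 1 low and 1 high library at nearly the same values, and the fitted difference was −0.00043 ± 0.53 (SE) on the log2 scale, with a 95% interval of −1.04 to 1.04. LDHA made up 48.1% and 36.2% of the lactate dehydrogenase FPKM in control cells and 79.2% and 41.1% in knockout cells. The means of the groups differed by 18.0 percentage points, and by −1.05 without knockout 1. An exact permutation test of 2 libraries against 2 (two-sided) cannot give a p below 0.333, so none of the isozyme shares could pass.

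PDK1 encodes a kinase that shuts off pyruvate dehydrogenase and so limits the use of pyruvate in the mitochondria. It had FPKM of 0.0326 and 0.339 in control cells against 3.99 and 1.70 in knockout cells. These values stand for 1 and 9 reads against 46 and 30, and both knockouts were above both controls. Its log2 fold change of 2.24 ± 2.68 (SE) was smaller than that SE, which was set by genes of like level. The SD between replicates of PDK1 itself was 0.61 on the log2 scale. The length used for PDK1, 14193 nt, is again that of the longest transcript, and which transcripts were present was not tested.

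**Figure D3:**
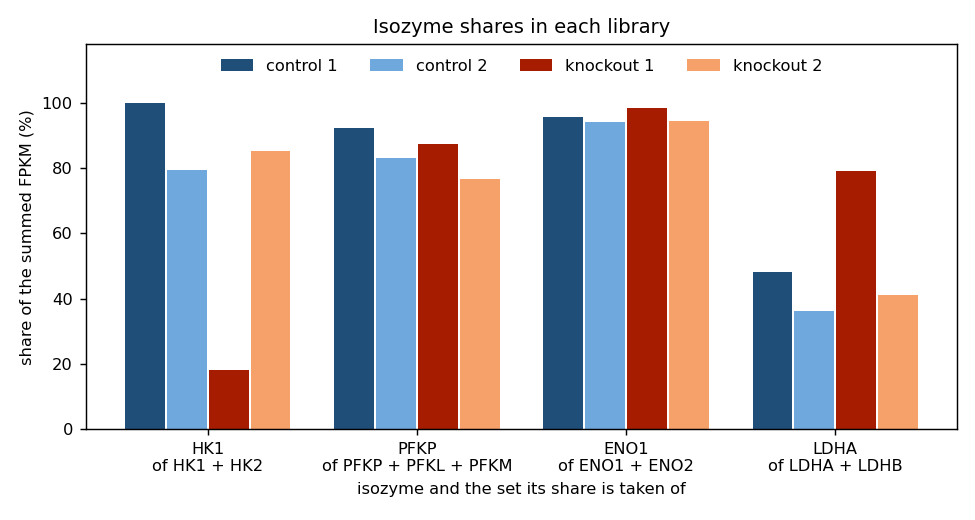
Share (%) of 1 isozyme in the summed FPKM of its set, with 1 bar per library, for hexokinases, phosphofructokinases, enolases and lactate dehydrogenases. PFKP and ENO1 lead their sets in every library (at least 76.5% and 94.2%), while knockout 1 differs from the other libraries in its shares of HK1 (18.1%) and LDHA (79.2%).

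The HIF targets outside glycolysis stood at an FPKM of at most 71.6 or were listed at 0. Of the 10 genes, 7 were tested, 2 with a difference above 0 and 5 below, and none passed in limma (0 at an unadjusted p under 0.05). CA9, a cell-surface carbonic anhydrase and a much used hypoxia marker, was listed at 0 in all 4 libraries, as were ANKRD37 and EGLN3, the latter a prolyl hydroxylase that marks HIF alpha subunits. For CA9, 3 reads would have given an FPKM of 0.858 to 2.28, and a lower level was not detectable at this depth.

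VEGFA, the angiogenic growth factor, had FPKM of 0.418 and 6.02 in control cells against 3.85 and 7.89 in knockout cells. Control 1 was its lowest library and the groups overlapped. The antisense gene AL136131.3 overlaps VEGFA, with FPKM of 179 in control 2 and 0 in the other libraries. ADM, the gene of the vasodilator adrenomedullin, had 7.10 and 31.1 against 0 and 14.1. NDRG1, a stress-responsive gene, had 12.7 and 1.07 against 0.309 and 20.9, so each group held a high and a low library.

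BNIP3 and BNIP3L encode receptors that target mitochondria for autophagy. BNIP3 had FPKM of 33.6 and 28.6 in control cells against 47.8 and 12.6 in knockout cells, which lay on either side of the controls. BNIP3L had 71.6 and 17.2 against 24.6 and 7.82, with control 1 the highest library. Its log2 fold change of −1.31 ± 1.30 (SE) kept its sign under every alternative run and was −0.29 without control 1.

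P4HA1 and P4HA2 encode catalytic subunits of the collagen prolyl hydroxylase. P4HA1 had FPKM of 3.09 and 2.82 in control cells against 0 and 0.567 in knockout cells, and P4HA2 had 0.276 and 0.479 against 5.88 and 1.20. The knockouts lay below the controls for P4HA1 and above them for P4HA2. These values rest on few reads, 19 and 15 against 0 and 2 for P4HA1 and 2 and 3 against 16 and 5 for P4HA2. Neither log2 fold change (−2.24 ± 2.73 and 1.92 ± 2.76, SE) exceeded its SE, which was set by genes of like level. The SD between replicates was 0.55 for P4HA1 and 0.97 for P4HA2 on the log2 scale.

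Sums over the roles describe the libraries and were not tested. The FPKM of the 22 glycolysis genes summed to 3373 and 3994 in control cells and 3683 and 4579 in knockout cells, which overlapped. They took 0.865% and 0.984% of the reads in control cells and 0.876% and 1.15% in knockout cells (Wilson 95% intervals 0.853 to 0.878, 0.970 to 0.998, 0.856 to 0.897 and 1.13 to 1.17, counting error only). LDHA, LDHB and PDK1, the genes of pyruvate fate, summed to 305 and 652 in control cells against 766 and 705 in knockout cells, without overlap. The 10 HIF targets summed to 129 and 87.3 in control cells against 82.4 and 65.0 in knockout cells, also without overlap. BNIP3 and BNIP3L made up most of the sum in control 1. As shares of reads the groups did overlap for these 10 genes, at 0.0440% and 0.0296% in control cells against 0.0303% and 0.0278% in knockout cells.

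Replicates matched more closely for the abundant genes. The median SD between replicates was 0.45 on the log2 scale for the 9 genes averaging an FPKM of 100 or more and 1.63 for the other 18. Below 100 it followed no single order, with a median of 0.79 for the 4 genes at 1 to 3 FPKM, 2.63 for the 4 at 3 to 10, 2.01 for the 4 at 10 to 30 and 1.21 for the 6 at 30 to 100. All tested genes at 100 or more had a median of 0.57. By recovered reads, the 2 controls differed beyond their 95% counting intervals for 18 of the 32 genes and the 2 knockouts for 22. Across the 27 tested genes, Pearson's r of the log2 levels was 0.88 for the control pair, 0.72 for the knockout pair and 0.79 to 0.85 for the pairs that crossed the groups. Over all tested genes it was 0.42 to 0.49 for every pair of libraries. These are descriptions across genes, which are not independent replicates and share a library. Knockout 1, the shallowest library, was lowest, ties included, for 13 of the 27 (48.1%), control 1 for 12, control 2 for 2 and knockout 2 for 3. Over all genes tested knockout 1 was lowest for 51.0% and control 1, the deepest library, for 45.1%. The part of depth in these differences was not tested.

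**Figure D4:**
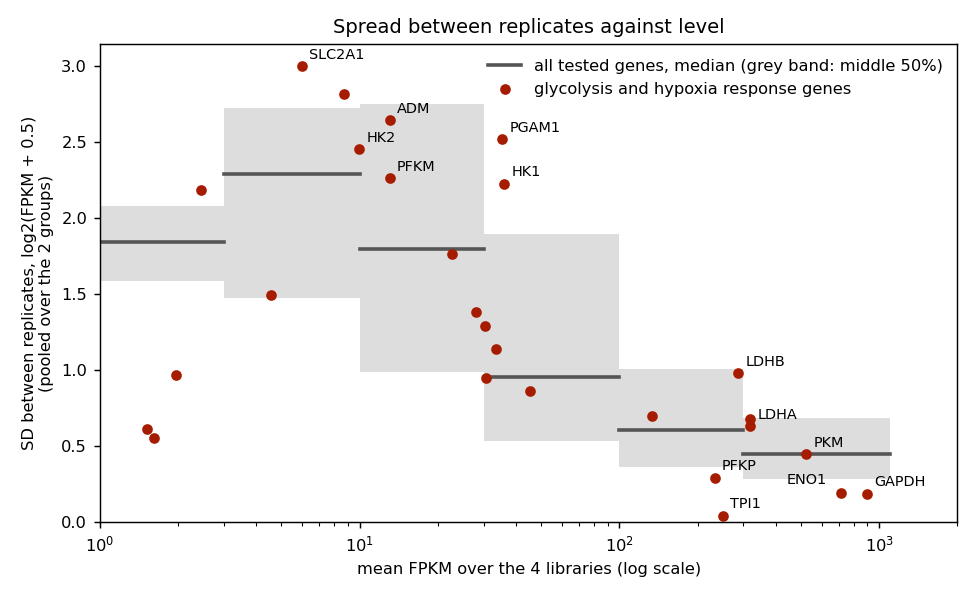
SD between replicates on the log2(FPKM + 0.5) scale, pooled over the groups, against mean FPKM (log axis) for the 27 tested genes (points) and for all tested genes in bins of level (line: median, band: middle 50%). TPI1, GAPDH and ENO1 lie at the bottom right with an SD of at most 0.19, while HK1 and PGAM1 lie above the band of their bin with an SD of 2.22 and 2.52.

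Processed pseudogenes could take or lend reads for several of these genes. GENCODE 29 names 143 such copies of the set, 61 of them of GAPDH and 39 of BNIP3. Of the 143, 16 were above 0 in some library, with 7, 27, 2 and 14 reads in all in control 1, control 2, knockout 1 and knockout 2. The most abundant were GAPDHP60, TPI1P1 and GAPDHP1, at FPKM of at most 4.83 in any library. How reads that match several copies were counted is not given, so the values of GAPDH, LDHA, TPI1 and the other genes with copies are uncertain to that extent.

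Other genes of the same pathways also gave no call. None of the 11 regulators of the HIF system passed in limma (1 at an unadjusted p under 0.05), with 6 above 0 and 5 below and a median log2 fold change of 0.63. Its most abundant members were ELOB, VHL and RBX1, all parts of the ubiquitin ligase that degrades HIF alpha. RBX1 had FPKM of 0.247 and 15.4 in control cells against 55.3 and 52.1 in knockout cells, which lay above both controls (log2 fold change 3.97, unadjusted p = 0.0136, adjusted p = 0.955 in limma). ELOB had 14.8 and 72.4 against 0 and 61.5, and VHL had 55.0 and 22.2 against 42.5 and 15.5. HIF1A, named after its values were seen because it encodes the inducible alpha subunit, had 0.468 and 14.3 against 37.7 and 3.87, so the knockouts held the highest value and a value between the controls.

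Of 18 further HIF targets, 14 were tested and none passed in limma (0 at an unadjusted p under 0.05), with 7 above 0 and 7 below. SLC16A3, the lactate exporter of glycolytic cells and the most abundant of them, had FPKM of 28.9 and 42.7 in control cells against 62.0 and 67.9 in knockout cells. Both knockouts lay above both controls, with a log2 fold change of 0.87 and an adjusted p of 0.955 in limma. BHLHE40, a transcriptional repressor, had 14.9 and 58.5 against 41.9 and 52.9, and its groups overlapped.

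Pyruvate and lactate handling held 14 genes, of which 12 were tested, 6 above 0 and 6 below, with none past the threshold in limma (0 at an unadjusted p under 0.05). Beside SLC16A3 its most abundant genes were SLC16A1, a second lactate carrier, at FPKM 25.8 and 26.2 in control cells against 55.5 and 24.5, and DLD, a subunit of pyruvate dehydrogenase, at 2.34 and 19.5 against 50.2 and 9.02. Knockout 1 was the highest library for both.

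The pentose phosphate pathway, which branches off at glucose 6-phosphate, had 7 genes, all tested, 2 above 0 and 5 below, with none past the threshold in limma (0 at an unadjusted p under 0.05). TALDO1, the transaldolase gene, had FPKM of 146 and 100.5 in control cells against 345 and 121 in knockout cells. TKT, the transketolase gene, had 103 and 74.4 against 72.9 and 72.0, a difference between the nearest libraries of the groups that was far smaller than that between the controls.

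Of 9 genes of glycogen and other sugar entry, 8 were tested, 1 above 0 and 7 below, with −1.19 as the median log2 fold change and none past the threshold in limma (0 at an unadjusted p under 0.05). PYGB and PYGL, which encode glycogen phosphorylases, had FPKM of 97.0 and 122 against 119 and 76.1, and of 74.2 and 70.0 against 42.4 and 63.0. PYGL was lower in both knockouts without overlap (1 of the 8 tested, 12.5%, against 14.4% of all genes tested). GBE1, the branching enzyme gene, had 31.5 and 4.48 against 14.2 and 1.16. Of 7 genes of gluconeogenesis and bypass reactions, 3 were tested (0 called in limma, 0 at an unadjusted p under 0.05). PCK2, a mitochondrial enzyme that makes phosphoenolpyruvate, had 9.79 and 11.7 in control cells against 0 and 0.644. PGM2 had 44.8 and 6.39 against 0 and 4.94. Both were lower in knockout cells without overlap (2 of the 3 tested, against 14.4% of all genes tested). BPGM had 0.225 and 1.30 against 0 and 5.50. All 3 were lowest, at 0, in knockout 1, the shallowest library.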

How the data were processed

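The 4 libraries are RNA-seq libraries of polyA RNA, and each is labelled input in the name of its column of values. The authors deposited 1 table of FPKM values per library, counted with HTSeq per the file names, with hg38 as the genome build per the submitters' processing notes. Not given in the sources used here are the aligner, the annotation release, the strand setting and how duplicate or multiply mapped reads were treated. Names and positions came from GENCODE 29 (hg38), which matched 58039 of 58302 genes. Multiplying FPKM by the longest annotated transcript of each gene gave whole multiples of the worth of 1 read for 96.5 to 96.7% of values (tolerance 0.0001), and lengths of 378 further genes, 4 of them in the set, were solved from the values. Recovered reads give the depths and the counting intervals (exact Poisson), which cover counting error only.

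The 11463 genes averaging an FPKM of 1 or more were compared between knockout and control on log2(FPKM + 0.5) with limma 3.58.1 in R 4.3.3 (moderation with a trend, two-sided), with Benjamini-Hochberg adjustment over all of them and a threshold of 0.05. Fold changes on that scale understate changes of low genes. The trend took all the weight in the main fit, so an SE followed the level of a gene and not its own replicates. The fit was tested on simulated data with a fixed spread of counts. That run does not show how the fit behaves at the spread between replicates seen here. Shares, sums and figures were made with Python 3.11.15, pandas 2.3.3, scipy 1.17.1 and matplotlib 3.10.9. Alternatives covered the pseudocount, filter, scaling, moderation, a replicate block, and each library left out. A fit of the recovered reads with limma-voom was chosen after seeing the data. The members and lists were chosen with earlier results of these data known. Named are all members, IGF2BP3, and of each further list the genes past the threshold and up to 3 with the highest mean FPKM, and likewise 3 pseudogenes. Some genes that this rule names are not reported here. Promoters are from RefSeq (GRCh38.p14). Proteins of isozymes were not compared here.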

Additional observations from a re-analysis of the deposited data

How the results depend on the processing

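Replicate number limits these results, with 2 libraries a group at 811823 to 2162179 reads each. Genes of the set under 100 FPKM varied between replicates by a median SD of 1.63 on the log2 scale. No difference of the set passed under any setting. Genes above 0 numbered 8856 and 11433 in control 1 and control 2, and 7827 and 11127 in knockout 1 and knockout 2. Control 1, the deepest library, thus listed fewer genes than control 2 and knockout 2. The part of depth in the spread was not tested. Genes called over the whole table numbered 10, and 7 to 14 in the other settings with 4 libraries, except 0 when the trend was left out (415 by unadjusted p under 0.05) and 18 at an adjusted p under 0.1. With each library left out in turn, limma called 0 to 0 genes (752 to 1025 at an unadjusted p under 0.05), the lone sample being assumed to vary like the other group. With the replicate block, 14 genes and 0 of the set were called. Same-numbered libraries did not deviate together (correlation −0.0040 over all genes), and whether they share a culture or day is not given in the labels.

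Of the 27 genes, 23 kept their sign in all 10 alternatives with 4 libraries. PGK1 turned to 0.013 with a pseudocount of 1, 0.38 with quantile normalization and 0.38 with limma-voom. ENO1 turned to −0.067 with quantile normalization, LDHB to 0.00075 with median centring, 0.0039 as TPM and 0.23 with limma-voom, and NDRG1 to 0.0074 with a pseudocount of 1 and 0.98 with quantile normalization. The cause was not tested.

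With each library left out, 10 of the 27 kept their sign, the number above 0 was 11 to 21 and the median −0.51 to 0.64 (−0.56 to 0.34 over all genes tested). The log2 fold changes of the others ran from −1.21 to 4.26 for SLC2A1, −3.22 to 0.97 for HK1, −0.18 to 4.71 for HK2, −1.75 to 1.01 for PFKL, −0.65 to 3.88 for PFKM, −0.80 to 0.42 for PFKFB3, −1.17 to 0.15 for ALDOA, 0 to 4.36 for ALDOC, −1.78 to 1.74 for PGK1, −4.44 to 0.31 for PGAM1, −0.10 to 0.21 for ENO1, −1.86 to 0.30 for ENO2, −0.78 to 0.11 for PKM, −0.70 to 0.70 for LDHB, −0.11 to 2.72 for VEGFA, −2.49 to 2.23 for NDRG1 and −1.26 to 0.62 for BNIP3. Differences in isozyme shares ran from −71.7 to −4.50 percentage points for HK1, −11.2 to −0.366 for PFKP, −0.477 to 3.69 for ENO1 and −1.05 to 37.1 for LDHA.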
